A study of Homo sapiens with 3 samples.

Results

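In single-cell RNA libraries of BxPC-3, a cell line grown from a human pancreatic ductal adenocarcinoma, 323 of the 6188 barcodes with at least 500 unique molecular identifiers (UMIs, each standing for 1 captured RNA molecule) drew more than 20% of their UMIs from the 13 protein-coding genes of the mitochondrial genome. These mitochondria-rich barcodes were chosen by that share, a measured value, and numbered 109 in the parental, 93 in the single-positive and 121 in the double-positive library. They were compared with 5640 cells of full depth, defined by at least 6500 UMIs and at most 20% mitochondrial UMIs, of which 2409 were parental, 1291 single-positive and 1940 double-positive. A further 225 barcodes had fewer UMIs than the cells but the same low mitochondrial share, and are called low-UMI barcodes. A high mitochondrial share is often taken as a mark of damaged cells, but damage itself was not measured here, so the barcodes are named by their share.

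The study mixed BxPC-3 cells expressing EGFP with BxPC-3 cells expressing mCherry in equal numbers and held them in suspension to induce cell-in-cell structures, in which an epithelial cell is enclosed by another. Cells were then sorted by flow cytometry into those with 1 fluorescent signal (single-positive) and those with both (double-positive). Parental BxPC-3 cells were the third group. All cells were trypsinised and held in PBS with 20% FBS, and each group was 1 library made with the 5' kit, so no difference between groups has a replicate check and no test was made. Barcodes of a library are not replicates, and the intervals given with each value are exact binomial 95% intervals that cover counting error only.

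A cell keeps its RNA in separate compartments. Mitochondrial mRNAs are made and held inside the organelle behind its membranes, MALAT1 and NEAT1 are long noncoding RNAs held in the nucleus at speckles and paraspeckles, and most mRNAs are free in the cytosol, bound to ribosomes or docked on the endoplasmic reticulum (ER). A cell whose outer membrane is broken can lose one compartment and keep another, and high mitochondrial shares are used as a quality filter in single-cell data for that reason.

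Mitochondria-rich barcodes made up 4.14% (3.42 to 4.98) of the parental barcodes with at least 500 UMIs, 6.51% (5.28 to 7.91) of the single-positive and 5.68% (4.74 to 6.75) of the double-positive ones. They held 0.213%, 0.326% and 0.357% of the 65107147, 51637677 and 62517276 UMIs of the parental, single-positive and double-positive library. No mitochondria-rich barcode occurred as such in more than 1 library, and 2 parental ones also had at least 500 UMIs in the double-positive library. Markers of other cell types were at or near 0: the sums over the mitochondria-rich barcodes of a library were at most 1 UMI for 8 fibroblast genes, 1 for 11 immune genes, 5 for 7 endothelial genes, 2 for 6 erythroid genes and 1 for 8 neural and endocrine genes. The 9 epithelial markers summed to 279, 245 and 596 UMIs, and at most 1 of them was at 0 in a library.

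**Figure D1:**
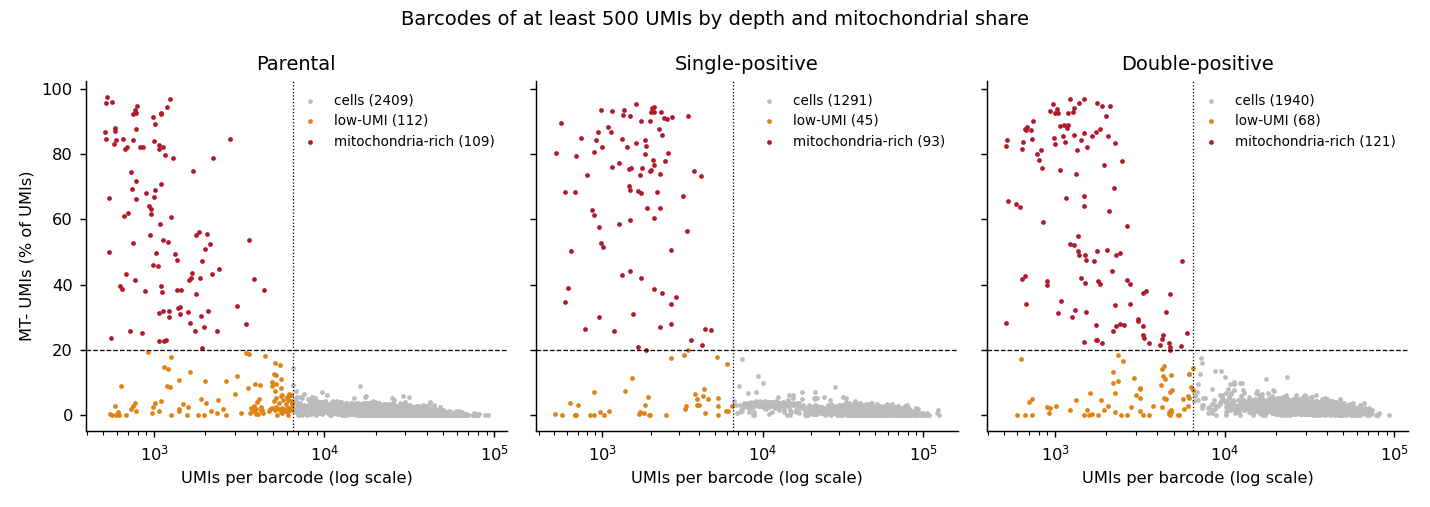
Each point is 1 barcode of at least 500 UMIs, with its UMIs on a log x axis and the percentage of UMIs from mitochondrial genes on the y axis, in 3 panels for the 3 libraries. Dashed and dotted lines mark 20% and 6500 UMIs, and the 109, 93 and 121 mitochondria-rich barcodes (red) lie left of the cells (grey) in depth.

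Mitochondria-rich barcodes held far fewer UMIs of other genes than a cell and, in most of them, more mitochondrial UMIs. The median mitochondria-rich barcode had 1076 UMIs in the parental library (range 511 to 4412), 1717 in the single-positive (516 to 4777) and 1482 in the double-positive library (512 to 5973), against 23290, 38137 and 29963.5 in cells. UMIs from all other genes had medians of 427, 381 and 531, which were 54.1-fold, 99.1-fold and 55.0-fold below the medians of the cells. The highest mitochondria-rich barcode, with 2715, 3530 and 4467 such UMIs, was below the lowest cell, with 5565, 6122 and 5973, so the classes did not overlap in any library. The limit of 6500 UMIs for cells sets much of this gap.

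Mitochondrial UMIs went the other way. Their medians were 595, 1109 and 890 per mitochondria-rich barcode and 208, 391 and 590 per cell, which is 2.86-fold, 2.84-fold and 1.51-fold higher. The median of the cells was exceeded by 107 of 109 parental, 85 of 93 single-positive and 94 of 121 double-positive barcodes, and 2, 4 and 0 barcodes exceeded the highest cell. The median mitochondrial share was 55.3%, 74.8% and 58.0%. At the limit, the lowest shares inside were 20.7%, 20.1% and 20.0% at 1897, 1862 and 4774 UMIs, and the highest outside were 19.5%, 19.8% and 18.6% at 913, 3401 and 2339 UMIs.

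Free RNA could supply a small part of what these barcodes held. Near-empty barcodes, those with 1 to 100 UMIs, gave an estimate of 13.7, 18.3 and 18.1 UMIs per droplet, the mean of the 10000 largest of them in each library, equal to 2.30%, 2.88% and 1.95% of all non-mitochondrial UMIs of the mitochondria-rich barcodes. Among barcodes over 80% mitochondrial the load was equal to 13.2%, 9.77% and 13.4%.

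For the gene comparison, UMIs were summed over the mitochondria-rich barcodes of each library and scaled to counts per 1000000 (CPM) with mitochondrial genes left out of the total. The sums were 65229, 58913 and 112448 UMIs, so 1 UMI was worth 15.3, 17.0 and 8.89 CPM. Of 1591 genes that averaged 100 CPM or more, 108 were at least 2-fold higher than in cells in all 3 libraries (6.79%) and 142 at least 2-fold lower (8.93%). Of these, 93 higher and 131 lower genes had all 3 counting intervals off zero. The mean was taken over the 3 sums of mitochondria-rich barcodes and the 3 of cells, and 92 of the 108 higher genes averaged under 100 CPM in cells, so they were counted only through the barcodes in which they were high and had to differ. With the same floor on cells alone, 16 of 1595 genes were higher (1%) and 191 lower (12%). The median log2 ratio over all 1591 genes was -0.40, -0.47 and -0.34 in the parental, single-positive and double-positive library, and with a scaling that centres this median the split was 167 higher and 40 lower. Low-UMI barcodes had 34 higher genes (2.14%) and 0 lower (0%) by the same rule, and near-empty barcodes 1 higher (0.0629%) and 0 lower.

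The highest genes were nuclear RNAs. MALAT1, at chr11:65497688-65506516 (GRCh38), stood at 44137, 17466 and 33180 CPM in mitochondria-rich barcodes and at 1969, 2370 and 2480 CPM in cells, and its log2 ratios were 4.49 (4.43 to 4.54), 2.88 (2.79 to 2.97) and 3.74 (3.69 to 3.79). NEAT1, its neighbour at chr11:65422774-65445540, had 10624, 5754 and 11721 CPM against 587, 614 and 682 CPM, with log2 ratios of 4.18, 3.23 and 4.10. Both were higher in all 3 libraries, and least so in the single-positive one. Of the 10 detained-intron and speckle mRNAs counted, transcripts known to be kept in the nucleus until an intron is removed, 5 were called higher (OGT, CCNL1, NKTR, LUC7L3 and PNISR) and 0 lower, but 0 of the 4 that reached 100 CPM in cells were called.

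The remaining genes among the 10 highest were COL7A1, OGT, LENG8, RSRP1, PARP14, CCNL1, ZNF841 and NFKBIZ. All 8 averaged under 100 CPM in cells, and are described here as values only. COL7A1, the collagen of epithelial anchoring fibrils, had 31, 11 and 34 UMIs and log2 ratios of 4.32, 2.73 and 3.47. OGT, the enzyme that adds N-acetylglucosamine to nuclear and cytosolic proteins, had ratios of 3.45, 2.22 and 3.84, and CCNL1, a cyclin linked to splicing, 3.04, 2.33 and 3.23. NFKBIZ, a nuclear regulator of NF-kB, had 2.78, 1.70 and 2.86. LENG8 ranged from 2.83 to 3.72, RSRP1 from 3.24 to 3.54, PARP14, an ADP-ribosyltransferase, from 2.82 to 3.49, and the zinc finger gene ZNF841 from 2.32 to 3.18. In each of these the single-positive value was the lowest of the 3.

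The 10 lowest genes included mRNAs of secreted and ER proteins. CALR, the calcium-binding ER chaperone calreticulin, stood at 123, 84.9 and 213 CPM against 718, 819 and 739 CPM in cells, a log2 ratio of -2.55 (-3.76 to -1.57), -3.27 (-4.89 to -2.05) and -1.79 (-2.43 to -1.22). ITM2B, a membrane protein, had -2.73, -2.80 and -1.71. PRSS23, a secreted protease, was seen with 3, 2 and 11 UMIs, and DKK1, a secreted inhibitor of Wnt signalling, with 2, 2 and 8, so their log2 ratios of -3.04 and -3.05 in the parental library had intervals of -5.32 to -1.49 and -6.10 to -1.20. FGFBP1, a secreted carrier of fibroblast growth factors, had 3, 0 and 12 UMIs. PRDX4, a peroxiredoxin of the ER, had 2, 1 and 4 UMIs, and GHITM, a protein of the inner mitochondrial membrane, 5, 1 and 4. IFI6, an interferon-induced gene, had log2 ratios of -2.48, -2.43 and -1.46, PTGES3, a co-chaperone of HSP90, -2.55, -2.41 and -1.78, and GPI, a glycolytic isomerase, -2.38, -2.39 and -1.27. That all 10 were below the cells in every library is set by the rule that named them. FGFBP1 at 0 UMIs in the single-positive library allows only a bound, at a log2 ratio of -2.38.

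Among gene groups in the summed barcodes, glycolysis enzymes had 8 of 10 counted members called lower (GPI, PGAM1, PGK1, LDHA, TPI1, LDHB, ALDOA and PKM) and 0 higher. ER chaperones and translocon genes had 5 of 26 lower (19.2%), against 8.93% of all genes counted. Nuclear genes of the respiratory chain had 7 of 60 lower (11.7%), near that share, and neither group had a member called higher. All 8 keratins lay below the cells in all 3 libraries, as did 47.3% of all genes counted, without reaching 2-fold in each. ACTB, the main cytoskeletal actin, stood at 2714, 2614 and 3913 CPM against 10610, 10270 and 10098 CPM. Long genes of cell adhesion and scaffold had 5 of 14 higher and 0 lower, or 3 of 11 with the floor on cells alone. Of all genes counted 6.79% were higher, or 1% with that floor. AHNAK, a giant protein of this group, had log2 ratios of 2.02, 1.21 and 1.63. Cytosolic ribosomal protein genes had 0 of 80 called either way, with a summed share of 19.4%, 28.8% and 14.6% of non-mitochondrial UMIs against 17.6%, 17.8% and 17.4% in cells.

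That average joined barcodes of very different content. In the sums by mitochondrial share, MALAT1 and NEAT1 were far above the cells at moderate shares and were found in few barcodes at the highest. Their group stood at a log2 ratio of 4.61, 4.10 and 3.81 in barcodes of 20 to 30% mitochondrial UMIs and at 3.33, 0.43 and 3.18 in those of 50 to 80%. In barcodes over 80% it was represented by 6, 3 and 20 UMIs and stood at -0.51 (-1.95 to 0.62), -2.74 (-5.02 to -1.19) and 0.05 (-0.66 to 0.68). All 20 double-positive UMIs came from 1 of the 44 barcodes, at 83.3% mitochondrial, and 5 of the 6 parental ones from 1 barcode at 82.3%. Ribosomal protein mRNAs ran the opposite way, from 15.1%, 15.3% and 9.79% of non-mitochondrial UMIs at 20 to 30% to 36.9%, 43.4% and 37.3% over 80%.

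Counted barcode by barcode, MALAT1 and NEAT1 together were mostly either at 0 or well above the level of a cell. In the parental library 62 of 109 barcodes had 0 UMIs of both, 46 were above the 95th percentile of the parental cells, which was 0.763% of non-mitochondrial UMIs, and 1 lay between. In the single-positive library the counts were 78, 13 and 2 of 93 with a percentile of 0.915%, and in the double-positive library 68, 46 and 7 of 121 with 0.826%. The highest barcodes reached 16.8%, 12.4% and 25.7%, against a median of 0.211%, 0.264% and 0.262% in cells. The 2 kinds are called MALAT1/NEAT1-zero and MALAT1/NEAT1-high here. This split was drawn after the values had been seen, and the levels of MALAT1 and NEAT1 in it are fixed by the choice. The kinds also differed in depth, with medians of 225, 329.5 and 172.5 non-mitochondrial UMIs in zero barcodes and 902, 1659 and 1484.5 in high ones. At the lower depth a count of 0 can occur at the level of a cell. Few counts can lie between the kinds there, so the low number of barcodes between depends in part on depth. In the parental library 1 UMI of 97 (1.03%) passed the percentile, and in the single-positive library 2 of 178 (1.12%) did.

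Ribosomal protein mRNAs, which the split did not use, separated the same barcodes. They held 40.2%, 42.1% and 39.4% of non-mitochondrial UMIs in zero barcodes and 10.6%, 11.2% and 8.43% in high barcodes, on either side of the 17.6%, 17.8% and 17.4% of cells. With MALAT1 and NEAT1 out of the total the high barcodes had 11.5%, 11.9% and 8.99%. Among barcodes with at least 100 non-mitochondrial UMIs, the 44 parental zero barcodes ran from 24.6% over a median of 40.3% to 53.1%, and the 45 high ones from 3.62% over 9.11% to 36.8%. In the single-positive library 73 zero barcodes ran from 19.5% over 42.8% to 55.0% and 13 high ones from 3.77% over 13.4% to 30.7%. In the double-positive library 48 zero barcodes ran from 23.7% over 41.5% to 50.4% and 46 high ones from 3.69% over 7.86% to 19.9%. The 2 kinds did not overlap in the double-positive library and their ranges overlapped in the other 2, while the 5th to 95th percentile of parental cells ran from 13.1% to 21.6%.

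**Figure D2:**
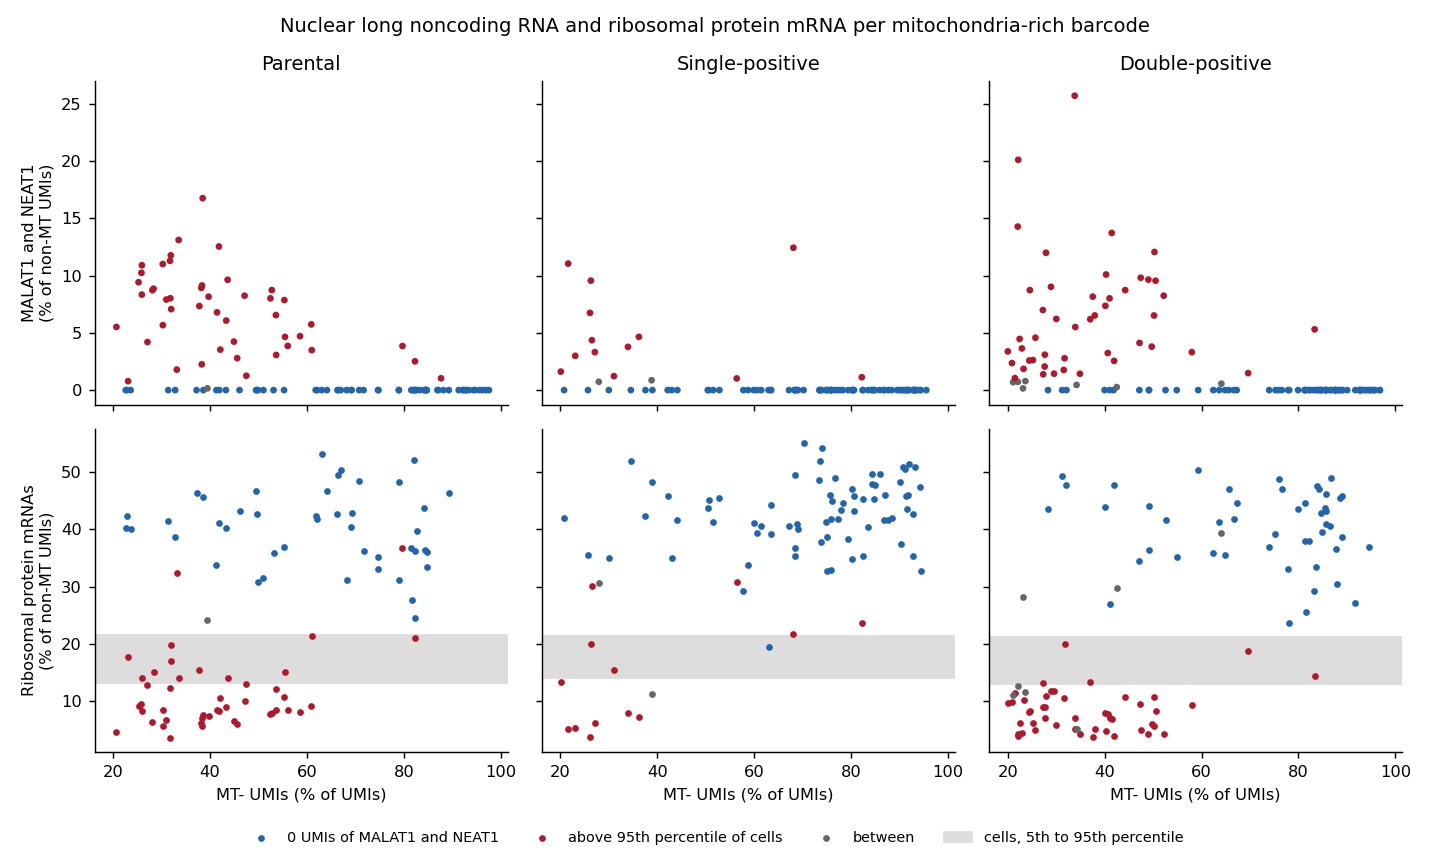
Each point is 1 mitochondria-rich barcode in its library, with the mitochondrial share on the x axis and, on the y axes, MALAT1 and NEAT1 (top) or ribosomal protein mRNAs (bottom, barcodes of at least 100 non-mitochondrial UMIs) as percentages of non-mitochondrial UMIs. Barcodes with 0 UMIs of MALAT1 and NEAT1 (blue) have median ribosomal protein shares of 40.3%, 42.8% and 41.5%, above the grey band of cells, and barcodes high in both RNAs (red) have medians of 9.11%, 13.4% and 7.86%, below it.

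The difference between the kinds was also present at like mitochondrial share. Within barcodes of 20 to 50% mitochondrial UMIs there were 14, 9 and 9 zero barcodes with medians of 597, 828 and 706 non-mitochondrial UMIs, and 33, 10 and 39 high ones with 974, 1801.5 and 1645. Ribosomal protein mRNAs held 41.6%, 41.3% and 39.4% in the former and 10.3%, 9.46% and 8.33% in the latter. Over 50% mitochondrial, 48, 69 and 59 zero barcodes had 38.9%, 42.3% and 39.4%, and 13, 3 and 7 high ones had 12.2%, 27.9% and 9.84%. Low-UMI barcodes with 0 UMIs of MALAT1 and NEAT1, numbering 23, 14 and 16, had 20.6%, 22.2% and 18.1%, closer to the cells than to the zero kind. Low-UMI barcodes above the 95th percentile, numbering 39, 15 and 19, had 11.5%, 13.03% and 10.9%, below the cells like the high kind, so that low ribosomal protein share was found in both classes.

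The 3 libraries held the kinds in different proportions. High barcodes were 46 of 109 in the parental, 13 of 93 in the single-positive and 46 of 121 in the double-positive library. Barcodes over 50% mitochondrial were 56.0% (46.1 to 65.5), 77.4% (67.6 to 85.4) and 55.4% (46.1 to 64.4). With 1 library per group, differences between groups and between libraries cannot be told apart. Within a kind, the ribosomal protein share of the 3 libraries lay within a range of 39.4% to 42.1% in zero barcodes and 8.43% to 11.2% in high ones.

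In MALAT1/NEAT1-zero barcodes 48 of the 1591 genes were at least 2-fold above cells in all 3 libraries (3.02%), and 171 were below (10.7%). With the floor on cells alone the counts were 45 (2.82%) and 175 (11%). Ribosomal protein genes made up 31 of the 48. Among the others, the ferritin genes are described first as abundant mRNAs, and higher ratios on few UMIs were seen, as in RAB13, a small GTPase, with 5, 14 and 14 UMIs and a log2 ratio of up to 2.88. FTL, the ferritin light chain of iron storage, had 774, 1190 and 676 UMIs, or 40443, 36768 and 34242 CPM against 13198, 10740.4 and 11074 CPM in cells, with log2 ratios of 1.62 (1.51 to 1.72), 1.78 (1.69 to 1.86) and 1.63 (1.52 to 1.74). FTH1, the heavy chain, had log2 ratios of 1.95, 1.97 and 1.69, and TPT1, the growth-related protein TCTP, 1.25, 1.44 and 1.31. In MALAT1/NEAT1-high barcodes the same FTL stood at -0.96, -0.74 and -1.30, FTH1 at -0.66, -0.40 and -1.42 and TPT1 at -0.67, -0.68 and -0.97. Of the 2 kinds, only the zero one was above the cells for these mRNAs.

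Many mRNAs of the translation machinery, the ribosomal proteins and TPT1 among them, begin with a cytosine followed by a run of pyrimidines, a start through which their translation is controlled by growth signals. The first transcribed bases of 3 ribosomal protein genes, TPT1 and, as a counterexample, FTL are shown because these abundant mRNAs were called higher in zero barcodes. Each line has 30 bases on the strand of the gene, 10 before the RefSeq start and 20 from it, with capitals for a pyrimidine run that opens with C within 2 bases of the start. Positions are in GRCh38.p14: RPLP1 chr15:69452808-69452837 (+), RPS19 chr19:41860245-41860274 (+), RPL28 chr19:55385922-55385951 (+), TPT1 chr13:45341164-45341193 (-) and FTL chr19:48965299-48965328 (+).
RPLP1: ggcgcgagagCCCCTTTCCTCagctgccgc
RPS19: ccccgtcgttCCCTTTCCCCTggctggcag
RPL28: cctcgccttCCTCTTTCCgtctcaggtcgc
TPT1: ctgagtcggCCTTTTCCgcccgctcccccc
FTL: acgtcccctcgcagttcggcggtcccgcgg

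RPLP1, a protein of the ribosomal stalk, had 713, 1159 and 682 UMIs in zero barcodes and log2 ratios of 1.83, 1.91 and 1.82, RPS19 1.65, 1.74 and 1.55, and RPL28 1.24, 1.27 and 1.23. In high barcodes RPLP1 stood at -0.51, -0.64 and -1.18, RPS19 at -0.10, -0.11 and -0.67 and RPL28 at -0.48, -0.47 and -1.27. A start of C followed by 4 pyrimidines, searched on the strand of the gene within 2 bases of the RefSeq start, was found in 47 of 64 ribosomal protein genes with a promoter in the RefSeq table (73.4%), in 181 of the 1247 other genes counted (14.5%) and in 10.5% of all 27305 promoters. Outside the ribosomal protein genes, summed log2 ratios in all mitochondria-rich barcodes were -0.40, -0.26 and -0.38 for genes with the start and -0.27, -0.37 and -0.20 for genes without it. Neither set was the higher one in all 3 libraries. Among barcodes of 20 to 50% mitochondrial UMIs the sums were lower with the start in each library. They stood at -0.47, -0.37 and -0.40 against -0.25, -0.36 and -0.18. Over 50% the sums were higher with it, at -0.24, -0.14 and -0.30 against -0.32, -0.39 and -0.32. Medians over genes kept neither order in all 3 libraries. At 20 to 50% they were -0.66, -0.40 and -0.49 with the start and -0.49, -0.49 and -0.34 without it. Over 50% they were -0.44, -0.38 and -0.54 with it and -0.35, -0.71 and -0.40 without it. In all mitochondria-rich barcodes the summed ratios of ribosomal protein genes with the start were 0.24, 0.79 and -0.19. The 17 without it stood at -0.093, 0.49 and -0.36, so those with it were higher in all 3 libraries. FTL has no such run in this window.

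The kinds also differed by the length of the mRNAs they held. Protein-coding genes other than ribosomal ones were grouped by the median length of their GENCODE 29 transcripts. In zero barcodes the summed log2 ratio was 0.35, 0.34 and 0.35 for the 362 genes under 1000 bases, -0.71, -0.76 and -0.69 for 506 genes from 1000 to under 2000, -1.44, -1.62 and -1.45 for 444 genes from 2000 to under 4000 and -2.13, -1.85 and -1.81 for 180 genes of 4000 or more. In high barcodes the order was reversed, from -1.20, -1.09 and -0.99 for the shortest genes to 1.26, 0.99 and 1.10 for the longest. Both orders were the same in all 3 libraries. With the floor on cells alone, the 107 longest genes stood at 0.91, 0.53 and 0.74 in high and at -2.14, -1.84 and -1.82 in zero barcodes. The levels in zero barcodes also depend on the total. With ribosomal protein genes, MALAT1 and NEAT1 left out of it, the 362 shortest genes stood there at 0.80, 0.84 and 0.79. The 180 longest then stood at -1.67, -1.35 and -1.37. The length of a gene goes with its function and its number of introns, and these cannot be told apart here.

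**Figure D3:**
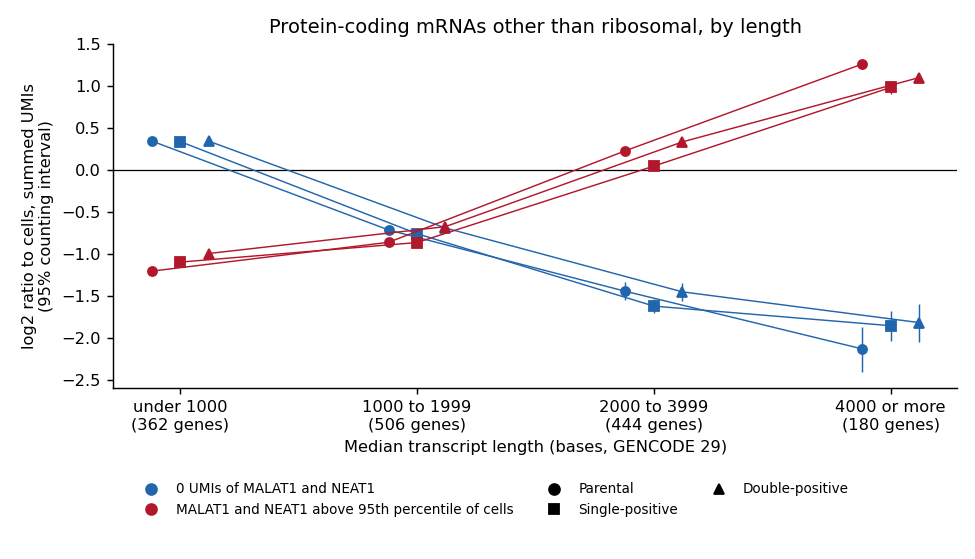
Summed log2 ratio to cells (y axis) of protein-coding genes other than ribosomal ones, in 4 classes of transcript length (x axis), with 95% counting intervals, a marker shape for each library and a colour for each kind. Zero barcodes (blue) go from 0.34 to 0.35 for the shortest class down to -1.81 to -2.13 for the longest, and high barcodes (red) go from -0.99 to -1.20 up to 0.99 to 1.26.

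In MALAT1/NEAT1-high barcodes 228 genes were at least 2-fold above cells in all 3 libraries (14.3%) and 275 below (17.3%). Of the 228, 160 averaged under 100 CPM in cells, and with the floor on cells alone 68 were higher (4.26%) and 297 lower (18.6%). Detained-intron and speckle mRNAs had 8 of 10 higher, long genes of adhesion and scaffold 8 of 14, immediate early genes 7 of 17 and hnRNPs and splicing factors 9 of 27. With the floor on cells alone these were 2 of 4, 5 of 11, 3 of 13 and 7 of 26. The summed log2 ratios of these 4 groups were 2.03, 1.98 and 2.12, then 2.14, 1.80 and 1.69, then 0.92, 1.11 and 1.08, and 0.61, 0.58 and 0.83. PLEC, the large cytoskeletal linker plectin, had 170, 56 and 122 UMIs and 3.92, 3.01 and 2.57, and JUN, a transcription factor made at once after a stimulus, 1.65, 2.39 and 1.45.

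In zero barcodes the same 4 groups lay below the cells. The detained-intron mRNAs, with 4, 5 and 3 UMIs in all, stood at -2.58 (-4.46 to -1.23), -3.11 (-4.73 to -1.89) and -3.15 (-5.43 to -1.60), splicing factors at -2.24, -2.15 and -1.69, immediate early genes at -2.39, -2.37 and -2.59, and the long genes at -1.65, -1.39 and -1.82. JUN was seen with 1, 0 and 1 UMIs. PLEC differed from its group, with 3, 14 and 7 UMIs and log2 ratios of -0.66 (-2.94 to 0.89), 0.53 (-0.34 to 1.28) and 0.47 (-0.84 to 1.52), none apart from the cells beyond counting error. Genes called higher in high barcodes and lower in zero barcodes numbered 10. Besides MALAT1 and NEAT1, whose levels the split fixed, they were AHNAK, AKAP12, EPHA2, ITGA3, JUN, SNRNP70, SRRM2 and SRSF2. With ribosomal protein genes, MALAT1 and NEAT1 out of the total, AKAP12 and EPHA2 kept both calls, and the other 6 lost the lower call in zero barcodes. The lower calls rest on few UMIs. AKAP12 had 1, 2 and 1 UMIs in zero barcodes and EPHA2 1, 1 and 1, and none of the others had more than the 6 of AHNAK in the single-positive library. Higher in zero and lower in high barcodes was 1 gene, WFDC2, a secreted protease inhibitor, with 24, 30 and 30 UMIs in zero and 8, 0 and 10 in high barcodes. Higher in both kinds were 2 noncoding RNAs, MIR4435-2HG and SNHG8. Of all genes counted, 14.3% were higher and 17.3% lower in high barcodes, and 3.02% and 10.7% in zero barcodes. Of the 228 genes higher in high barcodes, 216 were called neither way in zero barcodes. At these shares genes called in both kinds can occur without a link between the calls, and the overlaps are given as counts only. The genes named here and PLEC were picked after their values were seen.

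**Figure D4:**
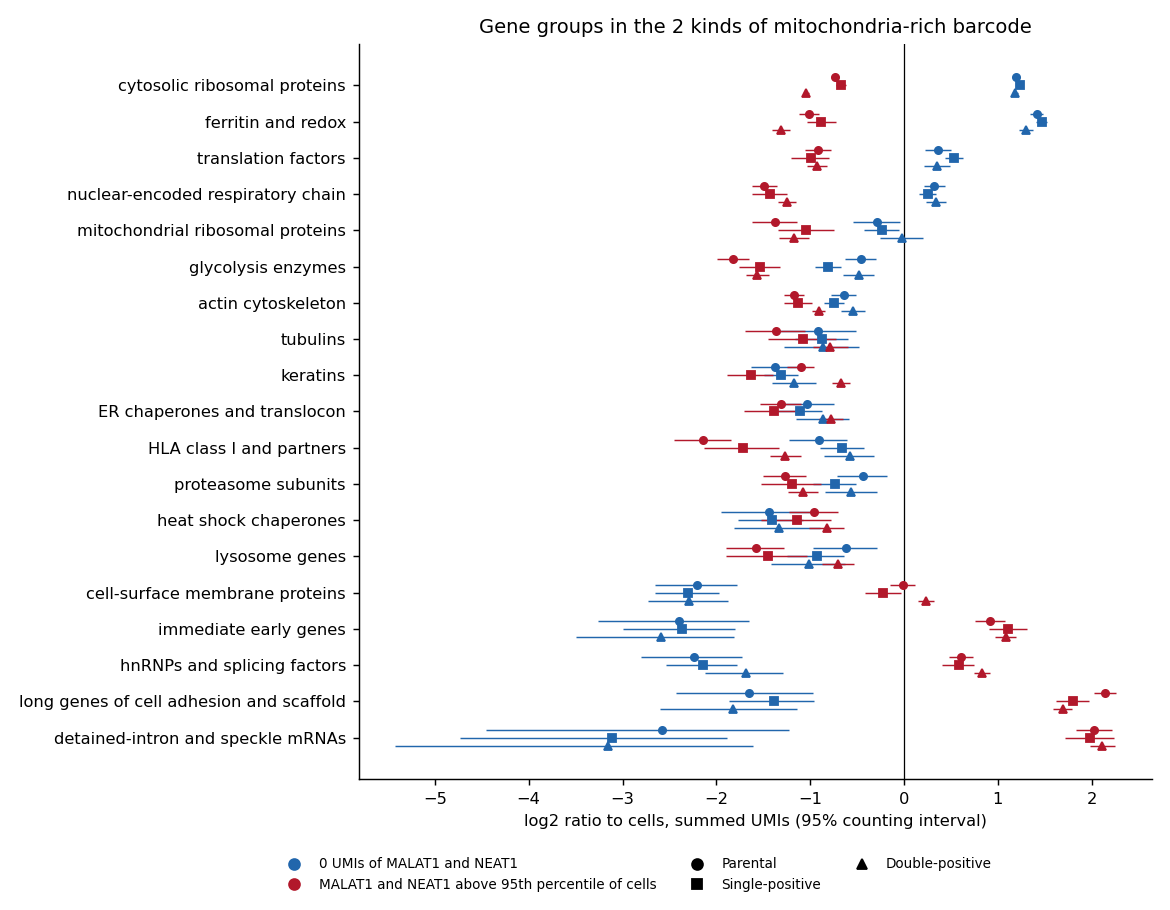
Summed log2 ratio to cells (x axis, with 95% counting intervals) of 19 gene groups (y axis) in MALAT1/NEAT1-zero (blue) and MALAT1/NEAT1-high barcodes (red), with a marker shape for each library. Ribosomal proteins stand at 1.18 to 1.24 in zero and -1.05 to -0.67 in high barcodes, and detained-intron mRNAs at -3.15 to -2.58 and 1.98 to 2.12.

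Cytosolic and mitochondrial groups were low in high barcodes. Nuclear genes of the respiratory chain had 26 of 60 lower and 0 higher, with sums of -1.49, -1.43 and -1.25, against 0.32, 0.25 and 0.34 in zero barcodes. Glycolysis enzymes had 9 of 10 lower, with sums of -1.82, -1.54 and -1.56. Among all genes counted, 17.3% were lower in high barcodes and 14.3% higher. GAPDH, the glycolytic enzyme often used as a reference gene, stood at 9928, 8250 and 8763 CPM in zero barcodes, 2355, 2570 and 2129 CPM in high ones and 8961, 8649 and 8647 CPM in cells. Its log2 ratio was therefore 0.15 (-0.06 to 0.35), -0.07 (-0.25 to 0.10) and 0.02 (-0.20 to 0.23) in zero and -1.93, -1.75 and -2.02 in high barcodes.

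The mRNAs of ER proteins were low in both kinds, while those of surface and secreted proteins, also translated at the ER, were not all so. ER chaperones and translocon genes had sums of -1.04, -1.11 and -0.86 in zero and -1.31, -1.39 and -0.78 in high barcodes, with 8 and 10 of 26 members lower. CALR was seen with 1, 3 and 0 UMIs in zero and 5, 2 and 20 in high barcodes. Cell-surface membrane proteins stood in zero barcodes at -2.20, -2.30 and -2.29 and in high barcodes at -0.02 (-0.15 to 0.11), -0.22 (-0.42 to -0.03) and 0.23 (0.15 to 0.32), with 6 of 26 higher and 2 lower. Secreted proteins had 4 of 16 higher and 3 lower in high barcodes and 1 higher and 3 lower in zero barcodes. Of all genes counted, 14.3% were higher and 17.3% lower in high barcodes, and 3.02% and 10.7% in zero barcodes. The secreted proteins lower in high barcodes were near the 17.3% of all genes. With the floor on cells alone, 4 of 25 surface proteins and 2 of 16 secreted proteins were higher in high barcodes. Of all genes, 4.26% were higher there with that floor. ACTB was low in both kinds, at -1.97, -1.66 and -1.57 in zero and -2.07, -2.66 and -1.44 in high barcodes. Keratins stood at -1.38, -1.31 and -1.17 in zero and at -1.10, -1.64 and -0.67 in high barcodes.

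Since ribosomal protein mRNAs filled so much of the zero barcodes, the share left for all other genes was smaller there. With ribosomal protein genes, MALAT1 and NEAT1 left out of the total, glycolysis enzymes in zero barcodes stood at -0.01, -0.31 and -0.04, respiratory chain genes at 0.78, 0.75 and 0.78, ER genes at -0.58, -0.61 and -0.42 and surface proteins at -1.74, -1.80 and -1.84. The calls in zero barcodes became 117 higher and 68 lower, with 48 and 68 of them shared with the first count. In high barcodes the same step left 227 higher and 294 lower.

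The mix of the mitochondrial mRNAs differed from that of cells by less than 2-fold for each of the 13, with MT-ATP8 the highest and MT-CO2 the lowest. MT-CO2, a subunit of cytochrome oxidase, was the largest and held 31.9%, 28.7% and 32.3% of mitochondrial UMIs against 38.4%, 34.5% and 36.5% in cells, a log2 ratio of -0.27, -0.27 and -0.18. MT-ATP8, a short subunit of ATP synthase, held 4.43%, 4.36% and 4.39% against 2.61%, 2.48% and 2.78%, a log2 ratio of 0.76 (0.71 to 0.82), 0.81 (0.77 to 0.86) and 0.66 (0.61 to 0.70). MT-ATP6, which shares its transcript, had 0.41, 0.34 and 0.33. MT-ATP8 overlaps MT-ATP6 and MT-ND4L overlaps MT-ND4, so the split within each pair depends on how reads were counted.

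The excess of MT-ATP8 grew with the mitochondrial share, from 0.31, 0.03 and 0.27 in barcodes of 20 to 30% to 0.96, 0.93 and 0.85 over 80%. In zero barcodes it was 0.89, 0.86 and 0.83, and in high barcodes 0.58, 0.47 and 0.35. Near-empty barcodes had MT-ATP8 at 0.71, 0.82 and 0.59 and MT-CO2 at -0.35, -0.36 and -0.34. They differed in other mRNAs, with MT-ATP6 at 0.15, 0.11 and 0.13, and MT-ND3 at -0.056, -0.15 and -0.15 against 0.12, 0.25 and 0.37 in mitochondria-rich barcodes. The part of free mitochondrial RNA in this result was not tested.

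**Figure D5:**
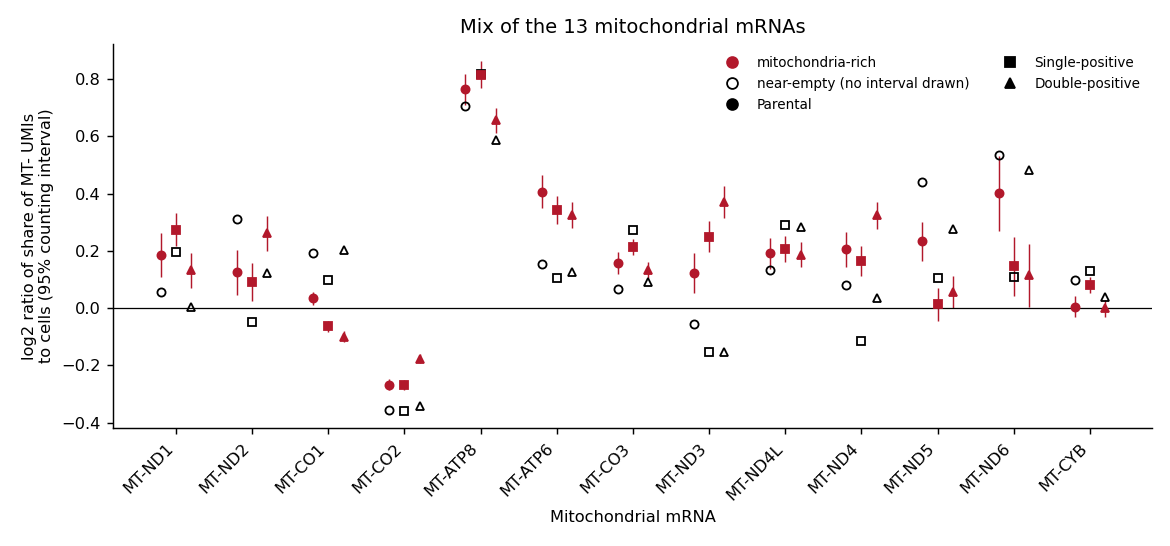
Log2 ratio to cells of the share of each of the 13 mitochondrial mRNAs among mitochondrial UMIs (y axis), in genome order (x axis), for mitochondria-rich barcodes (red, 95% counting intervals) and near-empty barcodes (open), with a marker shape for each library. MT-ATP8 is highest at 0.66 to 0.81 and MT-CO2 lowest at -0.27 to -0.18, and the near-empty single-positive marker of MT-ATP8, at 0.82, lies under the red one.

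The median mitochondria-rich barcode held fewer genes than the median cell at like depth. After each barcode was thinned to 200 non-mitochondrial UMIs, leaving out 32, 24 and 38 shallower ones, the median number of non-mitochondrial genes was 157, 135 and 166, against 170, 172 and 171 in cells and 169, 168 and 169 in low-UMI barcodes. The lower and upper quartiles after thinning were 136 to 176, 126 to 151 and 144.5 to 177.5, against 165 to 174, 167 to 176 and 167 to 175 in cells. These ranges overlapped in the parental and the double-positive library. Without thinning the median was 272, 218 and 305 against 4774, 5914 and 5358 in cells. The lowest value was that of the single-positive library, which also had the most zero barcodes, 78 of 93, and their part in it was not tested.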

How the data were processed

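Single-cell RNA was measured in 3 libraries, 1 each of parental, single-positive and double-positive BxPC-3 cells. The deposited matrices hold UMI counts per gene and barcode, not filtered for cells, with 737280 barcodes and 33694 features listed in each. Per the submitters' processing notes the tools were Seurat 4.0.6 and Cell Ranger 4.0.0 and the build GRCh38, with an annotation not given in the sources used here. No doublet caller was run.

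The members, gene lists and rules were chosen with earlier results of these data known. The split by MALAT1 and NEAT1, the ranges of mitochondrial share used beside it and 6 of the alternatives were chosen after seeing the data.

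UMI counts were summed per library and class and scaled to CPM of non-mitochondrial UMIs. Log2 ratios to cells have exact conditional binomial (Clopper-Pearson) 95% intervals, and shares of barcodes exact binomial ones. A sum of 0 takes a floor of 3 UMIs, which gives a bound. With 1 library per group and members chosen by a measured value no p-value was computed: a gene was called when at least 2-fold apart the same way in all 3 libraries, among genes averaging 100 CPM or more across the 6 sums. Such calls describe these libraries.

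Genes were named by a rule: among called genes the 10 highest and 10 lowest by median log2 ratio, leaving out XIST and genes that are Y-linked, antisense, clone-named or ribosomal, then up to 3 members of each list with the highest level in cells, the 13 mitochondrial mRNAs, MALAT1 and NEAT1. Other genes named as called members of a list or a kind were picked after their values were seen. Lengths and positions came from GENCODE 29, matched by identifier for 33103 features, and transcript starts from RefSeq (GRCh38.p14), matched by symbol for 1311 of 1591 genes (82.4%). A planned comparison by features of the encoded protein was not run. Beside the main settings, 15 others were planned, on limits of mitochondrial share and UMIs, reference class, scaling, weighting of barcodes, free RNA, expression floor, thinning and libraries left out. A further 6 were added after the data were seen. The steps were tested on simulated counts. Tools were matplotlib 3.10.9, pandas 2.3.3, scipy 1.17.1 and numpy 2.4.6 under Python 3.11.15.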

Additional observations from a re-analysis of the deposited data

Results flagged for a closer look

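In some groups and genes the summed mitochondria-rich barcodes of 1 library lay above the cells of that library and those of another below them, each with a counting interval that leaves out zero. The difference between libraries was not tested, since each group was 1 library. Cytosolic ribosomal protein mRNAs had a summed log2 ratio of 0.14 in the parental, 0.69 in the single-positive and -0.25 in the double-positive library, and the ferritin and redox genes 0.19, 0.83 and -0.36. Within these groups FTL had 0.35, 1.10 and -0.17, FTH1 0.67, 1.32 and -0.17, RPL28 0.29, 0.80 and -0.30 and TPT1 0.19, 0.83 and -0.16. The hnRNPs and splicing factors went the other way, at 0.17, -0.37 and 0.56, with HNRNPA2B1 at -0.20, -0.73 and 0.51.

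Further genes of that second pattern were F3, tissue factor, at -0.40, -1.64 and 0.31, ZFP36L1, a protein that binds unstable mRNAs, at -0.35, -1.62 and 0.56, and DSP, the desmosomal protein desmoplakin, at -0.66, -1.46 and 0.55. Barcodes without MALAT1 and NEAT1 numbered 62 of 109, 78 of 93 and 68 of 121, most in the single-positive library. Of the summed non-mitochondrial UMIs they held 19138 of 65229, 32365 of 58913 and 19742 of 112448. Their weight in the sums therefore also differed between the parental and the double-positive library. The values of those 2 libraries differed in sign for all groups and genes named in this section except the hnRNPs and splicing factors as a group. The part of barcodes without the 2 RNAs in the differences was not tested. Within barcodes without the 2 RNAs, FTL stood at 1.62, 1.78 and 1.63 and F3 at -2.45, -4.04 and -2.58, on 1 side of the cells in all 3 libraries.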

How the results depend on the processing

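The 108 higher genes became 32 over 30% mitochondrial, 22 over 50%, 231 at 20 to 50%, 19 against low-UMI barcodes, 21 with barcodes weighted equally, 167 with median-of-ratios scaling, 170 with ribosomal protein genes out of the total, 287 at 50 CPM, 26 at 200 CPM and 16 with the floor of 100 CPM on cells alone. The 142 lower genes became 43 against low-UMI barcodes, 40 with median-of-ratios scaling and 90 at 200 CPM. Of the 22 genes higher over 50%, 4 were among the 108. Leaving out 1 library gave 110 to 223 higher and 181 to 263 lower genes: without the single-positive library 223 and 220, and without the double-positive library 263 lower. Over 50% mitochondrial, the medians of detained-intron mRNAs (-0.41) and respiratory chain genes (0.051) changed sign. So did that of the 3 counted genes of the integrated stress and unfolded protein response (-1.05). Genes per barcode were 272, 218 and 305, and 4774, 5914 and 5358 in cells, when not thinned.

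In MALAT1/NEAT1-zero barcodes the 48 higher and 171 lower genes became 117 and 68 with ribosomal protein genes, MALAT1 and NEAT1 out of the total. Leaving out 1 library gave 62 to 69 higher and 218 to 277 lower there, with 264 lower without the parental and 277 without the double-positive library, and 245 to 282 higher and 323 to 399 lower in MALAT1/NEAT1-high barcodes, whose 228 higher genes became 68 with the floor on cells alone. Fewer libraries have to pass in the counts that leave one out. Among group values of zero barcodes whose counting interval left out zero, the reduced total turned 10 from a negative to a positive log2 ratio. These were mitochondrial ribosomal proteins at 0.17 and 0.26 (parental and single-positive), import and carriers at 0.091 and 0.13 (parental and double-positive), S100 proteins and annexins at 0.17, 0.30 and 0.14, secreted proteins at 0.024 (double-positive), proteasome subunits at 0.019 (parental) and interferon-stimulated genes at 0.34 (single-positive). With the reduced total the intervals included zero for parental mitochondrial ribosomal proteins, for import and carriers, for secreted proteins and for proteasome subunits. In those the values were not apart from the cells beyond counting error. With barcodes of at least 100 non-mitochondrial UMIs only, 48 and 166 genes were called in zero barcodes.

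No paired analysis was possible because each group has 1 library and the result comes from no test. With 1 UMI worth 15.3, 17.0 and 8.89 CPM, low genes in these sums rest on few UMIs. The causes of the shifts under other settings were not tested.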
